A study of Mus musculus with 6 samples.

Results

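The genes described here copy DNA and supply its building blocks. They are 46 genes for the replicative helicase, origin licensing and firing, the replicative polymerases, the sliding clamp and its loader, strand maturation, chromatin assembly and nucleotide synthesis. They were chosen by name, with earlier results of these data known. A probe set was used only if the platform annotation gives it that symbol alone. Of the 46 genes, 43 had such a probe set, out of 12393 genes on the array, and 41 were bright enough to test, out of 8675. Gins2, Rnaseh2a and Chaf1a are not analysed here, and Orc1 and Tyms were too dim to test. RNA came from CD4+CD25+ regulatory T cells (Treg) that had been separated magnetically from C57Bl/6 mice. The p300-deleted group, with the genotype fl-p300/Foxp3cre, has 3 samples, and the Foxp3cre control group, whose titles read WT, has 3, with 1 Affymetrix array each. Both groups carry Foxp3cre, a Cre recombinase driven from Foxp3, so the floxed gene of the histone acetyltransferase p300 is deleted in cells that have expressed Foxp3. The labels used here give no age for the mice, no treatment and no pooling of animals. By the title of the study, the question is what p300 does in Foxp3+ Treg.

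DNA replication begins when the origin recognition complex, Cdc6 and Cdt1 load the MCM helicase onto DNA in G1. In S phase the kinase Cdc7 with Dbf4 helps to fire these origins, Cdc45 and the GINS complex join MCM to form the active helicase, and primase and the polymerases alpha, delta and epsilon copy both strands. Resting T cells hold little of this machinery. It is made when they enter the cell cycle, largely through the E2F transcription factors, and Treg in vivo include a dividing fraction.

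The labelled cell type was checked first. T cell markers were present in both groups, with log2 values for Cd3e of 11.54 ± 0.09 (SD, n = 3) in p300-deleted samples and 11.38 ± 0.16 (SD, n = 3) in controls, on a scale where a step of 1 is a 2-fold change. Il2ra, which encodes the CD25 of the separation, was at 9.14 ± 0.05 and 8.89 ± 0.24. Cd4 was at 9.86, 10.07 and 9.74 in p300-deleted samples and at 9.45, 8.91 and 9.27 in controls, higher without overlap. Foxp3, the defining factor of Treg, was at 9.63, 9.35 and 9.39 in controls but at 2.57, 3.04 and 3.15 in p300-deleted samples, below the lower quartile of those arrays (3.26 to 3.29). By this gene, read from 1 probe set only, the p300-deleted arrays go against the Treg label. Other Treg markers were nearer between the groups. Ctla4 was at 10.93 ± 0.03 (SD, n = 3) in p300-deleted samples and 10.62 ± 0.25 in controls, and Ikzf4 at 8.39 ± 0.20 and 8.11 ± 0.16. Ikzf2 was at 5.26 ± 0.23 and 4.66 ± 0.89, and Tnfrsf18 at 11.02 ± 0.07 and 11.18 ± 0.24. Of the 12 tested T and Treg markers 10 had positive differences, and Foxp3 alone passed. At an unadjusted p under 0.05 in limma 3 were higher and 1 was lower. No probe set is named for Ep300, so the deletion itself could not be checked. Markers of other cells differed between the groups as well. The summed linear level of 8 plasma cell markers was 10658.6 to 12969.0 in p300-deleted samples and 5293.0 to 6517.9 in controls, and 5 of the 8 rose. That of 13 myeloid markers was 822.7 to 3164.4 against 333.5 to 680.9, and that of 9 mast cell and basophil markers was 524.1 to 889.0 against 265.1 to 291.3. Of the tested markers 0 of 11 myeloid genes passed in limma, with 7 higher at an unadjusted p under 0.05, and 6 of 8 mast cell and basophil genes rose. Over all genes tested, 0.991% rose at an adjusted p under 0.05 and 8.21% were higher at an unadjusted p under 0.05 (limma). B cell markers (576.9 to 967.6 against 850.6 to 973.1), cytotoxic T and NK markers (2164.4 to 2916.6 against 2322.8 to 2441.6) and erythroid markers (400.3 to 453.1 against 413.0 to 523.1) overlapped between the groups in their sums. Among the 10 cytotoxic T and NK genes, Gzma, a granule protease, rose by 0.73 (adjusted p = 0.0445 in limma). Of these 10, 4 were higher at an unadjusted p under 0.05 and 1 was lower, the related protease Gzmb (-1.12). Of the 9 B cell markers Pax5, Fcer2a, Cr2 and Ebf1 were too dim to test, as were Cd14 and Itgam of the myeloid list, Ms4a2 of the mast cell list and Hba-a1, Klf1 and Car1 of 6 erythroid markers. RNA quality was read from the Gapdh control probe sets, whose 3' signal exceeded the 5' signal by 0.06 to 0.14 in p300-deleted arrays and by 0.21 to 0.59 in controls, on the log2 scale. For actin this difference was 0.29 to 0.43 in p300-deleted arrays and 0.30 to 0.46 in controls, so the groups overlapped. The control signal for 18S ribosomal RNA was 7.74 to 9.47 and 5.68 to 8.69. The part of the marker differences in the results on replication genes was not tested, while fits with the 18S and Gapdh values as covariates are given with the results.

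Replication genes were lower in p300-deleted cells across most of the pathway. Differences are given as p300-deleted minus control in log2 units, and their median over the 41 tested members was -0.52, against -0.03 over all 8675 genes tested. Of the 41, 37 (90.2%) had negative differences, where 55.0% of all genes did, and 4 had positive ones, where 45.0% did. The p300-deleted arrays all lay below the controls for 33 members (80.5%), against a background of 13.2%, and above them for 1, Orc2, against 10.5%. At a p under 0.05 in limma, adjusted by Benjamini-Hochberg over all genes tested, 8 members (19.5%) fell, against a background of 0.726%. These were Mcm3, Mcm5, Gins1, Pola2, Chaf1b, Rrm1, Tk1 and Dut. By the same test 0 members rose, against a background of 0.991%. At an adjusted p under 0.1, 22 members were lower, against 2.33%, and 0 higher, against 2.27%, and at an unadjusted p under 0.05 31 members were lower and 1 was higher, where 9.89% and 8.21% of all genes were (limma). The list was chosen with earlier results of these data known, so these shares describe it and are not a test of it. In RNA from whole samples, fewer dividing cells and less RNA per cell cannot be told apart.

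The size of the shift moved little between fits, while the calls moved widely. Over 16 other fits the median of the members lay between -0.59 and -0.44. Among them, the fit with the replicate number as a block and that with a trended, robust variance cannot change any difference. The number of members called lower was 0 in limma without p300-deleted 1, 2 or 3 and without control 1, with 31, 29, 29 and 31 members lower at an unadjusted p under 0.05. In those fits all genes called numbered 35, 22, 30 and 9, against 63 lower and 86 higher with all 6 arrays. The count was 6 without control 2, of which 4 were among the 8, and 6 without control 3, all among the 8. All genes called numbered 118 without control 2 and 230 without control 3, with 0.622% and 1.05% of all genes called lower. With the 18S ribosomal RNA signal or the Gapdh 3' minus 5' difference of each array as a covariate, 0 members were called lower in limma, with 31 lower at an unadjusted p under 0.05 in each, and the medians were -0.58 and -0.57. Over all genes these fits called 15 and 48. The share of all genes at an unadjusted p under 0.05 was not counted without 1 array or with a covariate. The member counts at that p in those fits therefore have no background beside them.

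**Figure D1:**
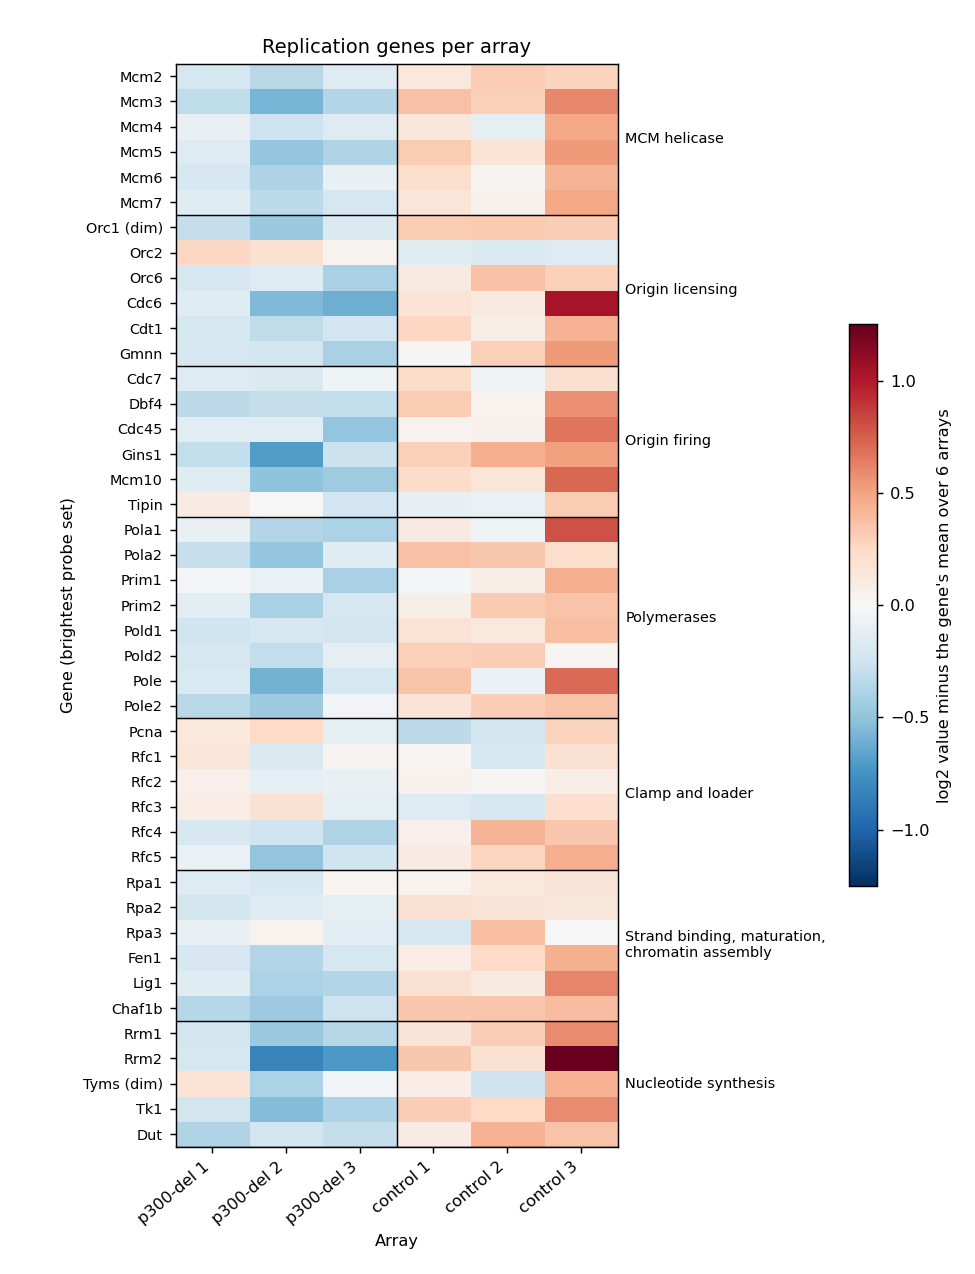
Each row is 1 of the 43 replication genes with a probe set and each column 1 array, with colour for the log2 value minus the mean of that gene over the 6 arrays. Blue fills most of the 3 p300-deleted columns and red most of the 3 control columns, deepest in control 3, while Orc2, Pcna, Rfc1 and Rfc3 break the pattern.

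The arrays within a group were not alike. Control 3 had the highest of the 6 values for 31 of the 41 members, and p300-deleted 2 had the lowest for 24. Averaged over the 41 members, the deviation from each gene's mean was -0.15, -0.30 and -0.25 in p300-deleted 1, 2 and 3 and 0.14, 0.15 and 0.42 in control 1, 2 and 3. The groups did not overlap on this measure, and controls 1 and 2 were nearly level. Without control 3 the median of the members was -0.45, and 36 of 41 were negative. The median SD between arrays was 0.13 in p300-deleted samples and 0.19 in controls, against 0.11 and 0.17 over all genes tested.

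Promoter sequences are shown for 7 members. They are 4 of the 8 genes that fell, Mcm6, which did not pass, and 2 clamp and loader genes whose groups overlapped. The RefSeq promoter table of build GRCm38.p6 holds 38 of the 46 members, with 250 bases before and 50 after the start site. Each window was searched on both strands for 4 exact forms of the E2F consensus, TTTCCCGC, TTTCGCGC, TTTGCCGC and TTTGGCGC, and for CCAAT, the box bound by the factor NF-Y. The letters of these motifs do not contain each other. An E2F form was present for 12 of the 38 members (31.6%), against 2.60% of all 27025 genes in the table and 2.26% of its 32851 promoters. CCAAT was present for 23 of 38 (60.5%), against 41.1% of all genes and 37.4% of promoters. The 250 bases before the start site are printed 5′ to 3′ on the strand of the gene, with matches of either kind in capitals.
Mcm3 (chr1:20820313-20820562, minus strand): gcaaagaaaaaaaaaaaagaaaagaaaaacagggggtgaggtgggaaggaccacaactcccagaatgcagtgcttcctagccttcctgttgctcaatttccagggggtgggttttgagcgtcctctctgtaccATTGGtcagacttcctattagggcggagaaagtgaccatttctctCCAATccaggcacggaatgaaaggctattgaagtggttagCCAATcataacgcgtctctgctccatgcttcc
Mcm5 (chr8:75109259-75109508, plus strand): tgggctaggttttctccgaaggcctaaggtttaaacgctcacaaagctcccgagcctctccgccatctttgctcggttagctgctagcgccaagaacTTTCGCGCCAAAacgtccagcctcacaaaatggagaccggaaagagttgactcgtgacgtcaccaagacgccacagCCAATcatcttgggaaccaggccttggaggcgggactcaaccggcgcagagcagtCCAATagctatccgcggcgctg
Mcm6 (chr1:128359706-128359955, minus strand): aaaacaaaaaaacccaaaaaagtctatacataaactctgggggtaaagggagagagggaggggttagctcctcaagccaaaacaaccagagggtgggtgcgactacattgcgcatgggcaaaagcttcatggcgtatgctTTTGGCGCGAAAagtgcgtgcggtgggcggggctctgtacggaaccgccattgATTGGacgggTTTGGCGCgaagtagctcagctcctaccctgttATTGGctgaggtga
Rrm1 (chr7:102441445-102441694, plus strand): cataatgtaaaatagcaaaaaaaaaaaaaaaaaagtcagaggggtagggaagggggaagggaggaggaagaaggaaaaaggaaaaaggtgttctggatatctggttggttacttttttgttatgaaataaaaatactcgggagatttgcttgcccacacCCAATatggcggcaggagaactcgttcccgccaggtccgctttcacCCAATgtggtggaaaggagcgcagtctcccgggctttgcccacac
Chaf1b (chr16:93883651-93883900, plus strand): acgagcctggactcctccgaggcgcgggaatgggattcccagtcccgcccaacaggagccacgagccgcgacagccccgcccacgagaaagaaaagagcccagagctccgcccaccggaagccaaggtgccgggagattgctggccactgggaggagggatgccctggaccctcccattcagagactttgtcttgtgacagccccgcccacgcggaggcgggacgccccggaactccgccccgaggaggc
Pcna (chr2:132253181-132253430, minus strand): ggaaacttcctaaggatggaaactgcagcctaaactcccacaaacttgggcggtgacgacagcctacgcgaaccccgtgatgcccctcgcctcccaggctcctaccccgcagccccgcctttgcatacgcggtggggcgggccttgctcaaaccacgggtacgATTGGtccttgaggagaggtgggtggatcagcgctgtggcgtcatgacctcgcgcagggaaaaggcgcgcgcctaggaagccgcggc
Rfc3 (chr5:151651209-151651458, minus strand): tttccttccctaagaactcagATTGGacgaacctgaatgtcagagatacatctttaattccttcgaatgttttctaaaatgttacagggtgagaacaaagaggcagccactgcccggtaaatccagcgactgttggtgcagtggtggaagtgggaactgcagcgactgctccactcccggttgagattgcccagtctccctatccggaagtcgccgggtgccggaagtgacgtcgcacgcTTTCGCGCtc
In the Mcm5 promoter the capitals from position -153 to -142, counted back from the start site, are a pair of E2F forms on opposite strands that share bases, and Mcm6 has such a pair at -110 to -99 and a further form at -47 to -40. Mcm3 has 3 CCAAT boxes, first at -117, in the printed bases, and its E2F forms lie after the start site, at 20 to 27 and 39 to 46. Rrm1 has 2 CCAAT boxes and no E2F form, and Chaf1b has neither. Pola2, Tk1 and Dut, which also fell but are not printed, have neither motif, and Gins1 has no promoter in the table. Pcna has 1 CCAAT box, while Rfc3 has an E2F form at -10 to -3 and a CCAAT box at -229 to -225. A further E2F form of Rfc3 lies after the start site, at 1 to 8. Among role groups, 4 of 5 MCM genes with a promoter in the table held an E2F form in any of their windows. This was so for 3 of 5 genes for origin licensing, 3 of 6 for polymerases and 1 of 5 for the clamp and loader. For strand maturation and chromatin assembly it was 1 of 8, and for origin firing and nucleotide synthesis 0. A match of letters is a description and does not show that a factor binds there.

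All 6 subunits of the MCM2-7 helicase, the ring that unwinds DNA at the fork, had negative differences, with a median of -0.48, and 2 fell. Mcm3 read 8.67, 8.41 and 8.62 in p300-deleted 1, 2 and 3 and 9.35, 9.29 and 9.59 in the controls. The groups are far apart and Mcm3 fell by 0.85 (SE 0.12, adjusted p = 0.023), 1.80-fold. Its brightest 3 probe sets gave -0.85, -0.82 and -0.70, while a pair of dimmer ones stood at 0.01 and -0.07, and with the mean of all 5 Mcm3 was at -0.485 (adjusted p = 0.166). Mcm5 read 8.08, 7.76 and 7.86 against 8.56, 8.41 and 8.77. It fell by 0.68 (SE 0.13, adjusted p = 0.0479), and all p300-deleted values lie under the lowest control.

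The other subunits did not pass the test. Mcm2 was at 8.30, 8.18 and 8.36 against 8.66, 8.84 and 8.80, a difference of -0.49 (SE 0.11, adjusted p = 0.0644). Its second probe set gave -0.68. The groups of Mcm2 do not overlap, nor do those of Mcm6 and Mcm7. Mcm6 was at 9.75, 9.58 and 9.87 against 10.18, 10.00 and 10.39 (-0.45, adjusted p = 0.128). Mcm7 was at 10.24, 10.07 and 10.18 against 10.55, 10.45 and 10.88 (-0.47, adjusted p = 0.121), with 3 further probe sets from -0.48 to -0.44. Mcm4 was at 9.14, 8.97 and 9.07 against 9.37, 9.11 and 9.71. Here control 2 lies below p300-deleted 1, and the difference was -0.34 (adjusted p = 0.294).

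Among the genes that mark and license origins 0 of 5 passed in limma, with 4 lower and 1 higher at an unadjusted p under 0.05. Cdc6, the ATPase that helps load MCM, had the largest difference of this group, at 6.05, 5.65 and 5.59 against 6.37, 6.31 and 7.23. Control 3 stands well above the other controls, and the difference was -0.87 (SE 0.24, adjusted p = 0.116). Cdt1, which delivers MCM to origins, and Gmnn, the inhibitor geminin that holds Cdt1 off after S phase begins, were at -0.52 (adjusted p = 0.074) and -0.56 (adjusted p = 0.0948). Orc6, a small subunit of the origin recognition complex, was at -0.51 (adjusted p = 0.076). For Cdt1, Gmnn and Orc6 the groups do not overlap.

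Orc1 and Orc2, further subunits of that complex, stood apart from each other. Orc1 was dim, at 3.44, 3.27 and 3.55 in p300-deleted samples and 4.05, 4.06 and 4.04 in controls. All p300-deleted values are lower, by 0.63 on average, and with dim genes kept in the fit Orc1 passed (SE 0.11, adjusted p = 0.0352). Orc2 went the other way, at 6.48, 6.41 and 6.26 against 6.07, 6.04 and 6.06, a difference of 0.33 (SE 0.10, adjusted p = 0.156). Its brightest probe set alone shows this, since its other probe sets were at -0.03 and -0.08.

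Of 6 genes for origin firing and the active helicase, all had negative differences, with a median of -0.57, and 1 fell. Gins1, a subunit of the GINS complex, read 6.15, 5.76 and 6.19 against 6.75, 6.91 and 6.97. The groups do not overlap and Gins1 fell by 0.84 (SE 0.14, adjusted p = 0.0343), 1.79-fold. Mcm10, which helps to switch on the assembled helicase, was at -0.73 (SE 0.17, adjusted p = 0.0746), and Cdc45 at -0.52 (adjusted p = 0.198). Dbf4, the activating subunit of the Cdc7 kinase, was nearly constant in p300-deleted samples, at 7.67, 7.70 and 7.69, and at 8.31, 8.04 and 8.57 in controls. The difference of Dbf4 was -0.62 (SE 0.14, adjusted p = 0.074), and that of Cdc7 itself -0.26 (adjusted p = 0.274), with a dimmer probe set at 0.26. Tipin, a fork protection factor, had the smallest difference of the group, with 8.72, 8.63 and 8.38 against 8.52, 8.54 and 8.94. The groups of Tipin overlap and it was at -0.09 (95% interval -0.43 to 0.25, adjusted p = 0.799).

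All 8 polymerase and primase genes had p300-deleted values below every control, where 13.2% of all genes tested did. Their differences ran from -0.66 to -0.34 with a median of -0.53, and 1 fell. Pola2, the accessory subunit of polymerase alpha, read 6.96, 6.76 and 7.10 against 7.61, 7.58 and 7.47 and fell by 0.61 (SE 0.12, adjusted p = 0.0467). It is 1 of 3 members for which control 3 is the lowest control. Pole, the catalytic subunit of the leading-strand polymerase epsilon, had the largest difference, with 5.89, 5.49 and 5.86 against 6.44, 6.01 and 6.79. Pole stood at -0.66 (SE 0.20, adjusted p = 0.135), as its controls were spread. Prim1, the catalytic subunit of primase, had the smallest, with 7.93, 7.87 and 7.54 against 7.93, 8.03 and 8.40. The highest p300-deleted and the lowest control value of Prim1 nearly touch, and its difference was -0.34 (adjusted p = 0.297). Pola1, Prim2, Pold1, Pold2 and Pole2 lay between, at -0.57, -0.50, -0.46, -0.42 and -0.56, with adjusted p of 0.21, 0.0893, 0.0757, 0.12 and 0.0813.

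The sliding clamp and most of its loader gave another picture. Pcna, the ring that tethers polymerases to DNA, read 11.67, 11.78 and 11.42 in p300-deleted samples and 11.21, 11.30 and 11.82 in controls. The highest value is that of control 3 and the lowest that of control 1, so the groups overlap. The difference of Pcna was 0.18 (95% interval -0.22 to 0.58, adjusted p = 0.64), and it turned to -0.105 with the 18S covariate. An interval this wide does not show that Pcna was level, but its lower end lies above the median of the members.

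The clamp loader, replication factor C, has 5 subunits. Rfc1, the large subunit, read 7.78, 7.45 and 7.66 against 7.65, 7.42 and 7.82, a difference of 0.00 (95% interval -0.31 to 0.32, adjusted p = 0.993). A further probe set was at 0.01, and another, dimmer one at -1.04 with an SE of 0.39. Rfc2 and Rfc3 were at -0.10 (95% interval -0.33 to 0.13) and 0.12 (95% interval -0.21 to 0.44), with overlapping groups. The sign of Rfc1 and of Rfc3 turned in several other fits. Rfc4 and Rfc5, by contrast, had p300-deleted values below every control, with differences of -0.55 (SE 0.12, adjusted p = 0.0737) and -0.55 (SE 0.14, adjusted p = 0.0936). Rfc5 read 7.80, 7.39 and 7.64 against 7.99, 8.16 and 8.34. Of the 6 clamp and loader genes 0 passed in limma, with 2 lower at an unadjusted p under 0.05, and their median was -0.05. Whether this group differs from the other members was not tested.

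**Figure D2:**
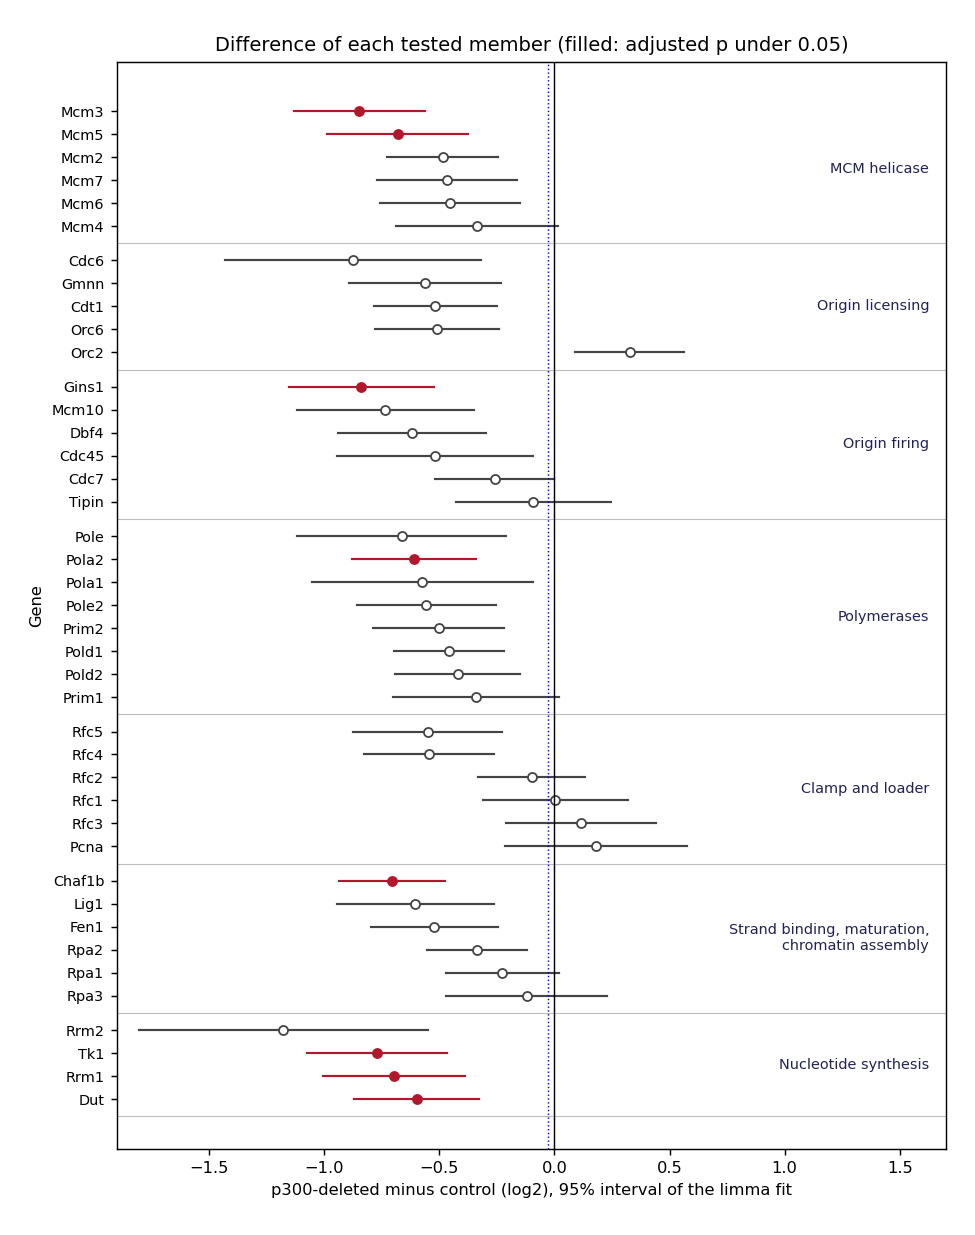
Points are the log2 differences (p300-deleted minus control) of the 41 tested members with the 95% interval of the limma fit, grouped by role, and the dotted line is the median of all genes tested (-0.03). The 8 filled points passed at an adjusted p under 0.05, from -0.85 (Mcm3) to -0.60 (Dut), while Pcna, Rfc1, Rfc2 and Rfc3 lie about 0.

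Genes that bind single strands, finish new strands and rebuild chromatin were all lower on average, with a median of -0.43, and 1 of 6 fell. Chaf1b, a subunit of the chromatin assembly factor CAF-1 that places histones on new DNA, read 5.93, 5.83 and 6.03 against 6.62, 6.63 and 6.67. Both groups are tight, and Chaf1b fell by 0.71 (SE 0.10, adjusted p = 0.0223), 1.63-fold. Lig1, the ligase that seals Okazaki fragments, and Fen1, the nuclease that trims their flaps, were at -0.60 (adjusted p = 0.088) and -0.52 (adjusted p = 0.0769), with no overlap between groups. The trimer RPA, which coats single-stranded DNA in replication and repair alike, had smaller differences. Rpa1 was at -0.23 (adjusted p = 0.31), and Rpa2 at 8.04, 8.10 and 8.15 against 8.46, 8.43 and 8.41, a difference of -0.34 (adjusted p = 0.121). Rpa3 was at 8.48, 8.62 and 8.43 against 8.37, 8.95 and 8.58, with overlap, a difference of -0.12 (adjusted p = 0.733) and a sign that turned in other fits.

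Nucleotide synthesis had the lowest median of the role groups, -0.73, and 3 of its 4 tested genes fell. Ribonucleotide reductase makes deoxynucleotides from ribonucleotides with a large subunit, Rrm1, and a small one, Rrm2. Rrm1 read 8.42, 8.19 and 8.30 against 8.81, 8.96 and 9.24 and fell by 0.70 (SE 0.13, adjusted p = 0.0467), 1.62-fold. Its dimmer probe set varied widely, from 4.49 to 7.11 within the controls, and was at 0.40 with an SE of 0.53, so the mean of both gives Rrm1 -0.15 (adjusted p = 0.846). Rrm2 had the largest difference of all members, with 8.82, 8.20 and 8.31 against 9.37, 9.22 and 10.27. The groups do not overlap, but control 3 stands far above the other controls, and Rrm2 at -1.18 (SE 0.28, adjusted p = 0.0769) did not pass. Its further probe sets gave -1.34 and -0.70.

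Tk1, the S phase thymidine kinase of the salvage route, read 7.27, 6.96 and 7.11 against 7.81, 7.75 and 8.09. The groups are apart, and Tk1 fell by 0.77 (SE 0.13, adjusted p = 0.0392), 1.71-fold. Dut, the dUTPase that keeps uracil out of DNA, read 8.40, 8.54 and 8.48 against 8.88, 9.21 and 9.13. It fell by 0.60 (SE 0.12, adjusted p = 0.0486), and of the 16 other fits it passed in 3. Tyms, thymidylate synthase, was too dim on the probe set of its own to test, at 3.28, 2.72 and 3.08 against 3.20, 2.85 and 3.55, with overlapping groups. A probe set shared by Tyms and its pseudogene Tyms-ps was brighter, at 7.47, 7.61 and 7.41 against 7.75, 7.995 and 8.31. There the p300-deleted values are all lower, by 0.52 on average (SE 0.15), but the reading cannot be assigned to Tyms alone.

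**Figure D3:**
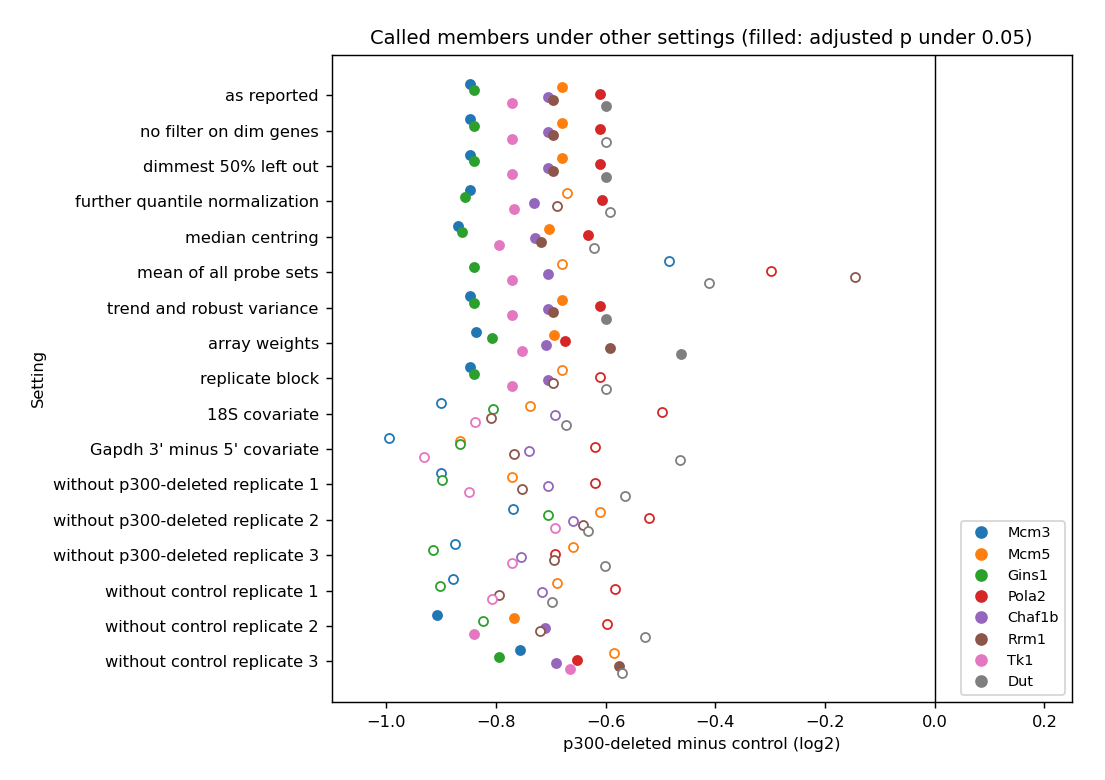
Each point is the log2 difference (p300-deleted minus control) of 1 of the 8 called members under 1 setting, filled where its adjusted p is under 0.05. All points lie below 0, and the fits without p300-deleted 1, 2 or 3, without control 1 and with either covariate hold no filled point.

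Several members have more than 1 probe set, which gives a check within these arrays that is not independent of them. Of 32 further probe sets of tested members, 28 were above the dim limit, and 20 of these had the sign of the brightest one. The exceptions are dimmer probe sets of Cdc7, Mcm3, Rpa2 and Rrm1, both further ones of Orc2, one of Rfc1 and that of Rfc3. Chaf1b and Tk1 passed in 10 of the 16 other fits, Mcm3 and Gins1 in 9, Pola2 in 7, Mcm5 and Rrm1 in 6 and Dut in 3. Their highest adjusted p over those fits were 0.115, 0.153, 0.166, 0.126, 0.211, 0.218, 0.846 and 0.186 in that order.

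Other genes of the same processes, taken from lists made by function, had medians nearer 0. Of 21 tested further fork genes 0 passed in limma, with 6 lower and 0 higher at an unadjusted p under 0.05, and their median was -0.10. Topbp1, a scaffold for origin firing and checkpoint signals, was at 8.34, 8.26 and 8.49 against 8.92, 8.72 and 8.95 (-0.50, adjusted p = 0.0757). Timeless, the partner of Tipin, was at 7.28, 7.33 and 7.53 against 7.83, 7.78 and 7.95 (-0.47, adjusted p = 0.0769). For both the groups do not overlap. Of 24 further nucleotide synthesis genes 0 passed in limma, with 8 lower and 3 higher at an unadjusted p under 0.05 and a median of -0.16. Cad, which starts pyrimidine synthesis, was at 7.76, 7.69 and 7.84 against 8.34, 8.31 and 8.13 (-0.50, adjusted p = 0.0592). Shmt2, a mitochondrial source of one-carbon units, was at -0.59 (adjusted p = 0.0746).

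Mitosis genes, whose products act after replication, had a larger median difference and a wider spread. Of 27 tested, all had negative differences with a median of -0.98, and 3 fell, the kinases Aurkb by 1.38 (adjusted p = 0.0445) and Ttk by 1.26 (adjusted p = 0.044) and the kinesin Kif20a by 1.07 (adjusted p = 0.0257). Control 3 was the highest of the 6 arrays for all 27. The p300-deleted arrays lay below every control for 16 of 27, against 33 of 41 replication genes and 13.2% of all genes tested. At an unadjusted p under 0.05 in limma, 23 of 27 were lower and 0 higher. By that measure 31 of 41 replication genes and 9.89% of all genes were lower. The median SD between controls was 0.58 for mitosis genes and 0.19 for replication genes. Mki67, the proliferation marker Ki-67, was at 8.64, 7.91 and 7.91 against 9.10, 8.59 and 10.01 (-1.08, adjusted p = 0.156), and control 2 lies below p300-deleted 1. Whether the replication and mitosis genes differ in their shift was not tested.

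Of 22 tested E2F and G1/S genes 1 fell, with 8 lower and 1 higher at an unadjusted p under 0.05 in limma, and the median was -0.19. The gene that fell was Ccne1, the cyclin E1 that drives entry into S phase, by 0.88 (SE 0.13, adjusted p = 0.0223). Ccne1 read 6.21, 5.86 and 5.95 against 6.75, 6.92 and 6.97, with the groups well apart.

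**Figure D4:**
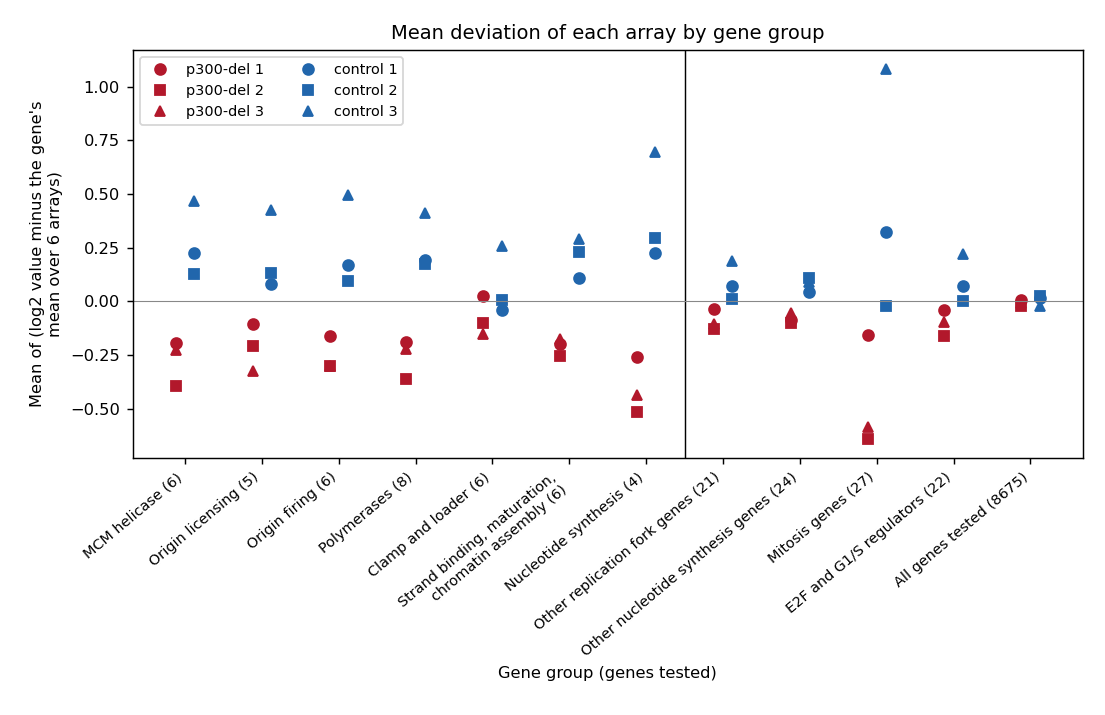
Each symbol is 1 array and shows the mean, over the tested genes of a group, of the log2 value minus the gene's mean over the 6 arrays, with replication groups to the left of the line and other lists to the right. The 3 p300-deleted arrays lie below all 3 controls in 6 of 7 replication groups and overlap them in the clamp and loader group, and control 3 stands highest for mitosis genes (1.08).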

How the data were processed

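The deposited log2 values of 22690 probe sets on 6 arrays had been made by the authors with RMA, as the submitters' processing notes name it (version not given in the sources used here). RMA evens out the arrays, which hides any change in total RNA. Nothing used here ties each sample to its own animal, so p-values cover only the spread among these arrays, part of which may be technical. With 3 arrays a group, precision is limited.

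The annotation gave 1 symbol to 20380 probe sets, several to 691 and none to 1619. Each gene was read from its brightest probe set, and the dimmest 30% (mean below 3.91) were left out. The comparison used limma 3.58.1 (lmFit, eBayes; R 4.3.3), two-sided, over 8675 genes, with the SE of the fit, and was tested on simulated data. The members, lists and alternatives were chosen with earlier results of these data known. Values were given in full for called members, the largest and smallest difference of each role group, Mcm2 to Mcm7, Rrm1, Rrm2, Tyms and Pcna, and, from other lists, for up to 6 called genes or the 2 with the smallest p. The values per array of Orc1, Orc2, Dbf4 and Rpa2 were added after they were seen.

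Alternatives were other filters, normalizations, probe set rules and variance models, the replicate block, the 18S and Gapdh covariates and leaving out each array.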

Additional observations from a re-analysis of the deposited data

How the results depend on the processing

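The median of the replication members kept its direction and moved by less than the spread between arrays (0.13) under every alternative run, from -0.59 to -0.44, and ranged from -0.59 to -0.45 with 1 array left out. The replicate block and the variance model with a trend and robust estimate cannot move it, so they say nothing about its stability. The count of 8 members called lower became 5 after a further quantile normalization, all among the 8. With the mean of all probe sets it was 5, of which 3 were among the 8, the others being Mcm2 and Orc1. It was 28 with array weights, 0 with the 18S covariate, 0 with the Gapdh covariate and 0 to 6 with 1 array left out. At an adjusted p under 0.1 it was 22, and at an unadjusted p under 0.05 it was 31 (limma). The share of all genes called lower, 0.726% in the reported fit, was 0.611% after the further quantile normalization and 0.427% with the mean of all probe sets. It was 6.39% with array weights, 0.0576% with the 18S covariate and 0.265% with the Gapdh covariate. Members called higher went from 0 to 1 with array weights and to 1 at an unadjusted p under 0.05. The 4 other pathway genes called became 38 with array weights, 0 with the 18S covariate (limma), 20 at an adjusted p under 0.1 and 49 at an unadjusted p under 0.05, and 0 to 9 with 1 array left out. The cause of these changes was not tested.

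With the replicate number as a block, 4 members were called lower, all among the 8. The median of -0.52 cannot change in that fit, since each group holds every replicate number once. Of all genes 0.484% were called lower in that fit. Deviations of same-numbered arrays correlated at -0.07, 0.12 and -0.12. Whether the numbers pair the samples cannot be told from these values.

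Signs that turned belong to members near 0. Pcna was at -0.105 with the 18S covariate. Rfc1 was at -0.02 with median centring, -0.34 with the mean of all probe sets, -0.042 with array weights, -0.039 with the 18S covariate and -0.23 with the Gapdh covariate, and ranged from -0.10 to 0.10 with 1 array left out. Rfc3 was at -0.034 with the mean of all probe sets, -0.088 with the 18S covariate and -0.012 with the Gapdh covariate. Tipin was at 0.009 with array weights and from -0.164 to 0.044 with 1 array left out. Rpa3 was at 0.066 with array weights, 0.19 with the Gapdh covariate and from -0.252 to 0.036 with 1 array left out.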

Other observations

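Outside the members, Cdkn1b, which encodes the cell cycle inhibitor p27, was at 9.68, 10.03 and 9.58 in p300-deleted samples and 8.59, 7.67 and 9.01 in controls, a difference of 1.34 (SE 0.30, adjusted p = 0.0715 in limma) with no overlap between groups. It was singled out after its values were seen. The nearest such value in the replication list is that of Orc2, the 1 member whose p300-deleted arrays all lay above the controls. For Orc2 this holds on its brightest probe set only, the others being at -0.03 and -0.08. Cdkn1b was read from the brightest of its 2 probe sets.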
